A study of Mus musculus with 6 samples.

Results

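The Id, Hes and Hey genes encode helix-loop-helix proteins, most of which hold back neurogenesis, and 9 of them were described here: Id1, Id2, Id3, Id4, Hes1, Hes5, Hes6, Hey1 and Hey2. They were picked by name, as every probe set of the array whose platform annotation gives 1 of these symbols and no other. This gave 15 probe sets for 9 genes, out of 18193 genes with such a probe set. RNA of neural stem cells was hybridised to 6 Affymetrix arrays. The mice were C57BL/6JRj, a line of the C57BL/6 laboratory strain. The labels put 3 arrays in a young group (YoungNSC, mice of 6 weeks) and 3 in an old group (OldNSC, mice of 9 months). No genotype, treatment or culture condition is given for either group, and nothing says that the 3 samples of an age were taken from different animals, so every p-value rests on a spread that may be technical.

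The Id proteins have a helix-loop-helix domain but no basic region, so they pair with E proteins without binding DNA and keep these partners from proneural factors such as Neurod1. They are known as targets of bone morphogenetic protein (BMP) signals. Hes and Hey proteins bind DNA and repress transcription, Hes proteins through Groucho corepressors, and most of these genes are switched on by the Notch receptors through the DNA-binding protein Rbpj. Hes1 and Hes5 keep embryonic neural progenitors from differentiating by repressing proneural genes, whereas Hes6 is known to oppose Hes1 and to favour neuronal differentiation.

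The labelled cell type was checked against 14 symbols fixed as markers of neural stem cells, of which 12 were named by a probe set here. Of these, 11 were above background, taken as a log2 level of 4 on at least 3 arrays, since no detection calls were used. Sox2, the transcription factor of neural stem cells, read 13.44 ± 0.077 in young and 13.30 ± 0.043 in old cells (log2, SD, n = 3). All 9 microglia markers, 8 of 9 endothelial markers and 7 of 9 mural and fibroblast markers lay under background on all 6 arrays. Markers of other neural cells also passed the filter: 7 of 8 for astrocytes, 6 of 10 for the oligodendrocyte lineage and 8 of 13 for neuroblasts and neurons. The arrays of the 2 ages were far apart as a whole. The ages parted on the first principal component (83.2% of the variance), young replicate 2 stood apart on the second, and 36.6% of the 19858 probe sets kept by the filter differed by limma at an adjusted p under 0.05. The 18 hybridisation controls, RNA added in fixed amount, were all lower in the old group without overlap, with means of 12.28 ± 0.098 and 13.24 ± 0.28 (log2, SD, n = 3). Their part in the results was not tested.

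Old cells held less Hes5, Hey2 and Id4 than young cells, and Hes5 lay under background on all old arrays. Id3 was slightly lower and Id2 slightly higher. For Id1, Hes1, Hes6 and Hey1 the ages overlapped on every kept probe set and none passed the test. The 3 genes with the deepest falls are shown by the sequence at their start, since 2 of them are classical Notch targets. RefSeq promoters (build GRCm38.p6) were at hand for Hes5, Hes6, Hey2, Id2, Id3 and Id4. Each line runs from 250 bases before to 10 bases after the transcript start, 5′ to 3′ on the gene's strand, and capitals mark TGGGAA, the core of the site that Rbpj binds, or its reverse complement.
Hes5, chr4:154960673-154960932, plus strand: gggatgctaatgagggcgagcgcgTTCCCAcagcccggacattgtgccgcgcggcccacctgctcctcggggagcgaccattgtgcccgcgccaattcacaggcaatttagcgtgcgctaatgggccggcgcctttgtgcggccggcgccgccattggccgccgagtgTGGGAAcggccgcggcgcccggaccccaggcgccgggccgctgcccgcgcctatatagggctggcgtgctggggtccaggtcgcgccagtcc
Hey2, chr10:30842774-30843033, minus strand: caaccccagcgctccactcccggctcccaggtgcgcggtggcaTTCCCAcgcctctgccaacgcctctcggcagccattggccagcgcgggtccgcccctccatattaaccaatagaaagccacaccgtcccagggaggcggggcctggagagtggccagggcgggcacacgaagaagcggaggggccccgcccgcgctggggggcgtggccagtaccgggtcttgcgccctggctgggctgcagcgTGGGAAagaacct
Id4, chr13:48260866-48261125, plus strand: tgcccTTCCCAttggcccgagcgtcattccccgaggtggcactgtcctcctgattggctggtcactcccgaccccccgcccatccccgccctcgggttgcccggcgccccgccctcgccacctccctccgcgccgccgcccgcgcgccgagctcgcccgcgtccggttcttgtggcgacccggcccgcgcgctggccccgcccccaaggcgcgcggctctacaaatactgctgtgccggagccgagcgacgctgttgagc

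The Hes5 and Hey2 windows each held TGGGAA 2 times, on either strand, and Id4 held it 1 time. In Hes5 the matches began 226 and 82 bases before the start, in Hey2 207 and 3 bases before it, and in Id4 245 bases before it. All 4 matches in Hes5 and Hey2 also had the longer form GTGGGAA, which contains the core, whereas the match in Id4 did not. Of all 32851 RefSeq windows of this length, 22.4% held TGGGAA at least 1 time and 2.97% at least 2 times. For GTGGGAA these shares were 5.58% and 0.186%. TGGGAA was not in the windows of Id2, Id3 and Hes6. No window was at hand for Id1, Hes1 and Hey1, whose levels overlapped between the ages, so the motif could not be searched there.

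Other motifs were searched on both strands of the same windows. GGCGCC, an element bound by the Smad proteins of BMP signalling, occurred 4 times in the Hes5 window and 1 time each in those of Id4 and Id2. Of all windows 9.96% held it at least 1 time and 1.52% at least 2 times, with no matching for G and C content. The windows shown are rich in G and C, at 71.9% for Hes5, 70.4% for Hey2 and 75.0% for Id4. CANNTG, the E-box of proneural factors, was in the Hes5, Hey2 and Id2 windows and both Hes6 windows, and in 67.7% of all windows. CACNAG, the N-box of Hes proteins, was found in Id4 and in 1 of the 2 Hes6 windows, and in 37.9% of all windows. A match describes letters and not a used site.

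**Figure D1:**
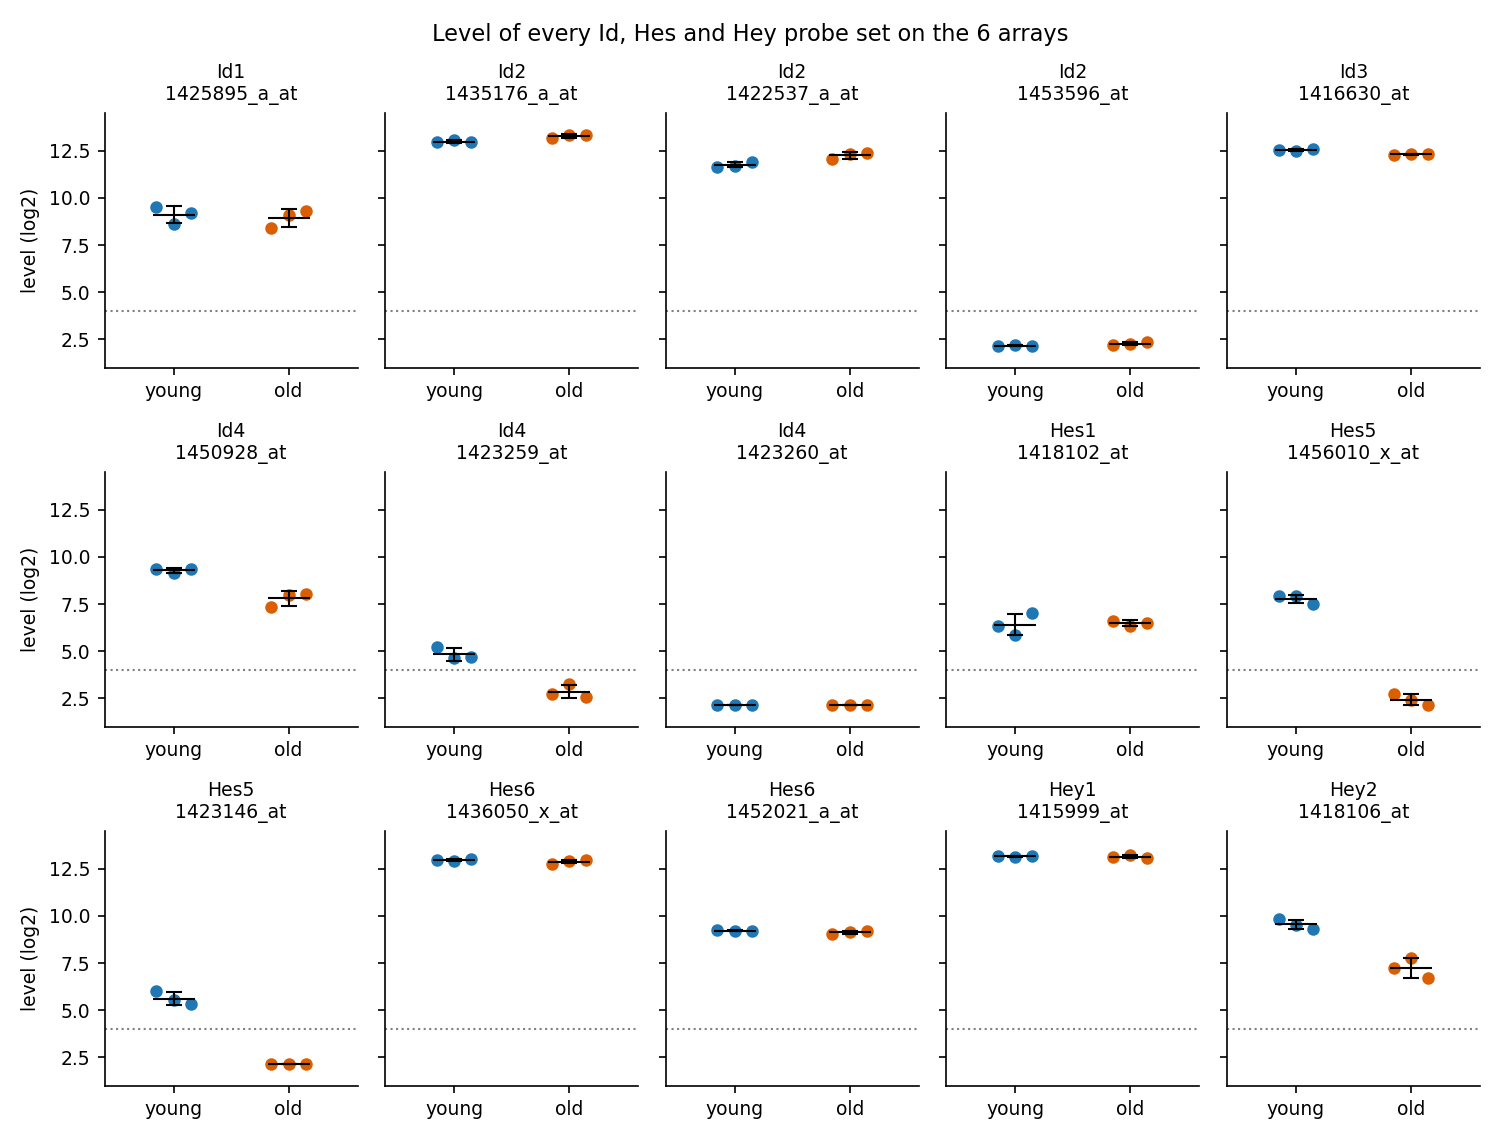
Level (log2) of each of the 15 probe sets on the 3 young and 3 old arrays, with the mean and SD as bars. The dotted line is the background level of log2 4. Both kept Hes5 probe sets drop below it on all old arrays, while Hey1 stays between 13.05 and 13.22 on all 6.

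Of the 15 probe sets 13 passed the filter and covered all 9 genes. Old and young arrays were compared by limma, and p-values were adjusted by Benjamini-Hochberg over the 19858 kept probe sets. Of the 13, 6 were lower in old cells, against 16.5% of all kept probe sets, and 2 were higher, against 20.1%. The other 5 did not pass. For 8 of the 13 the old and young arrays did not overlap, which held for 55.3% of all kept probe sets. All 3 old arrays were below the young ones for 6 (25.9% of all) and above them for 2 (29.4% of all). Of the 8 called probe sets 3 had passed the filter through the young arrays alone and so had to differ, and 5 were above background on all 6 arrays. With 13 probe sets of 9 genes these counts are a description and say nothing of the families as a whole.

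Among the Id genes, Id4 had the largest difference. Id4 is the member tied to quiescence of stem cells in the adult hippocampus. Its brightest probe set, 1450928_at, read 9.37, 9.13 and 9.35 on the young arrays and 7.35, 7.98 and 8.06 on the old ones (log2). All old arrays lay below all young ones, with 1.07 between the nearest. The level fell by 1.49 (SE 0.20, limma adjusted p = 0.00421), a 2.80-fold difference, and a change of this size or more was seen in 7.09% of kept probe sets. A second probe set, 1423259_at, read 5.22, 4.62 and 4.67 in young cells and 2.73, 3.25 and 2.58 in old cells (log2), where all 3 lay under background. It fell at least 1.79-fold against that background. This probe set passed the filter through the young arrays alone and so had to differ, and no p-value is given for the bound. The remaining one, 1423260_at, was under the filter and stayed between 2.14 and 2.15 on all arrays.

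Id2, also expressed in differentiating neurons, went the other way. Probe set 1435176_a_at read 12.95, 13.05 and 12.95 in young cells and 13.18, 13.32 and 13.36 in old cells (log2). The difference of 0.30 (SE 0.069, limma adjusted p = 0.0218) amounted to 1.23-fold. By 1422537_a_at the levels were 11.66, 11.70 and 11.93 in young and 12.06, 12.31 and 12.39 in old cells, a rise of 0.49 (SE 0.12, limma adjusted p = 0.0244). On both probe sets every old array was above every young one. The margins were narrow, at 0.12 and 0.14, and each call was lost on leaving out any 1 of 4 arrays. For 1435176_a_at these were young replicates 1 and 3 and old replicates 2 and 3 (adjusted p = 0.0607, 0.0689, 0.0770 and 0.0721, limma), and for 1422537_a_at young replicates 1 and 2 and old replicates 2 and 3 (adjusted p = 0.0673, 0.0621, 0.0818 and 0.0774). Both were also lost with no filter on low values (adjusted p = 0.0601 and 0.0924, limma). The remaining Id2 probe set, 1453596_at, was under the filter, at 2.15 to 2.37.

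Id3, which acts with Id1 in the stem cell niche, read 12.56, 12.51 and 12.59 in young cells and 12.28, 12.33 and 12.33 in old cells (log2, 1416630_at). It was lower on every old array and fell by 0.24 (SE 0.047, limma adjusted p = 0.0131), or 1.18-fold. Of all kept probe sets 50.7% had a change at least as large. Id1 read 9.51, 8.62 and 9.21 in young and 8.41, 9.11 and 9.32 in old cells (log2, 1425895_a_at). The ages overlapped, and the difference was -0.17 with a 95% interval from -0.98 to 0.65 (limma adjusted p = 0.708). These arrays therefore leave room for an Id1 change in either direction as large as the fall of Id3 or the rise of Id2.

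Hes5, the Notch effector of neural progenitors, had the largest difference of the 9 genes by its brightest probe set. Its probe set 1456010_x_at read 7.91, 7.91 and 7.52 in young cells and 2.73, 2.42 and 2.14 in old cells (log2). All young arrays were above background, and all old ones were under it and near the lowest value of the table, 2.14. How far Hes5 fell below background is therefore not known, and only a bound can be given: against background it fell at least 13.7-fold. This probe set passed the filter through the young arrays alone and so had to differ, and no p-value is given for the bound. The ending _x_at marks a probe set whose probes can also bind other transcripts.
The second probe set, 1423146_at, does not carry that mark. It read 6.00, 5.53 and 5.31 in young cells and 2.14 on all 3 old arrays, a fall of at least 3.06-fold. That bound is smaller than the 4.95-fold fall of Hey2, so this probe set alone does not place Hes5 first. Like the brighter one, 1423146_at passed the filter through the young arrays alone. Because the normalization sets dim probe sets close to 1 value, the spread of the old Hes5 arrays is understated.

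Hes1, the Notch effector that oscillates in dividing progenitors, read 6.36, 5.87 and 7.005 in young cells and 6.62, 6.32 and 6.51 in old cells (log2, 1418102_at). The old arrays lay within the range of the young ones. The difference was 0.07 with a 95% interval from -0.66 to 0.81 (limma adjusted p = 0.859), so a moderate change in either direction could not be seen. Hes6 was tighter. By 1436050_x_at it read 12.95, 12.90 and 13.04 in young and 12.77, 12.91 and 12.94 in old cells, a difference of -0.09 with an interval from -0.26 to 0.08 (limma adjusted p = 0.334). By 1452021_a_at it read 9.25, 9.19 and 9.21 in young and 9.06, 9.15 and 9.22 in old cells, a difference of -0.07 with an interval from -0.21 to 0.08 (limma adjusted p = 0.396).

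The Hey genes, Notch targets best known from blood vessels and heart, did not move together. Hey2 read 9.81, 9.50 and 9.33 in young cells and 7.22, 7.77 and 6.72 in old cells (log2, 1418106_at). Every old array was lower, by at least 1.56, and every array was above background. Hey2 fell by 2.31 (SE 0.29, limma adjusted p = 0.00311), which is 4.95-fold, and 3.79% of kept probe sets changed as much. Hey1 read 13.17, 13.11 and 13.19 in young and 13.13, 13.22 and 13.05 in old cells (log2, 1415999_at). Its difference of -0.03 had a 95% interval from -0.18 to 0.13 (limma adjusted p = 0.752), which does not reach the change of Hey2.

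**Figure D2:**
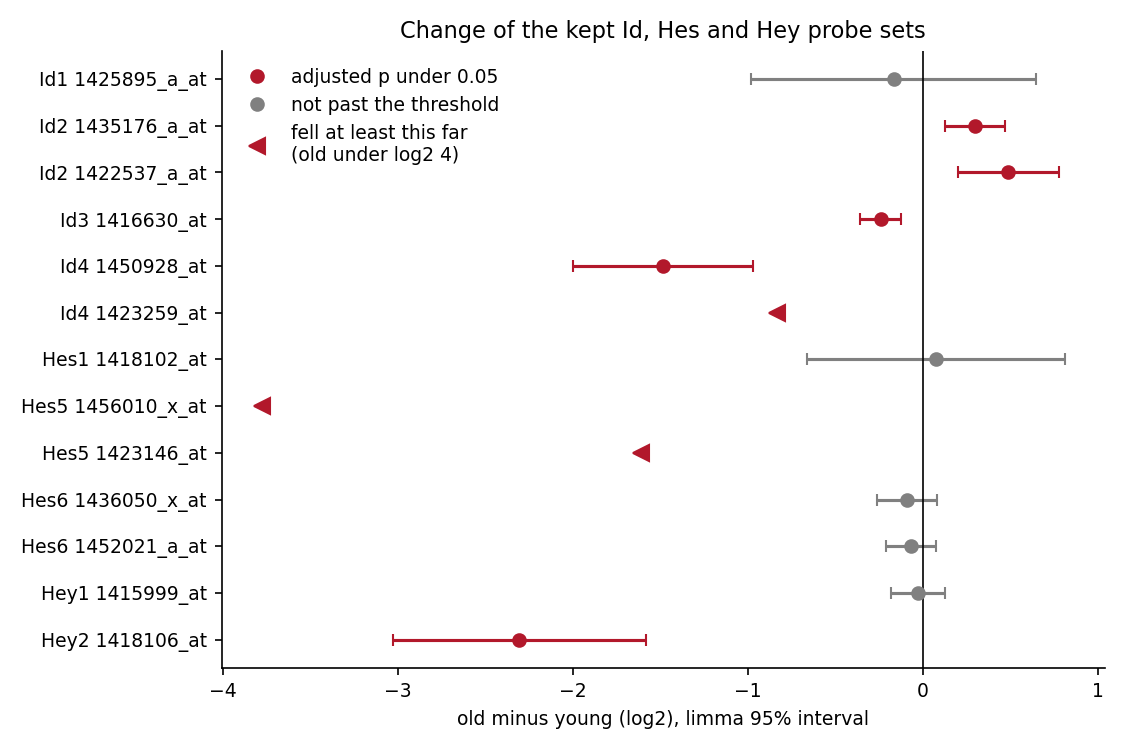
Difference between old and young cells (log2, x axis) for the 13 kept probe sets, with limma's 95% interval as bars and red for an adjusted p under 0.05. Triangles mark probe sets under background on all old arrays and stand at the smallest fall that background allows, -3.78 and -1.61 for Hes5 and -0.84 for 1 of Id4, and both probe sets of each gene with 2 kept ones point the same way.

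Relatives were then set against each other within each array, which removes any factor that scales a whole array. For each pair of genes of 1 family, the difference of their log2 levels was taken on every array, using the brightest kept probe set of each. There were 10 such pairs, and in 7 the 3 old arrays did not overlap the 3 young ones, against 65.1% of all pairs of named genes on these arrays. Hes1 minus Hes5 was -1.55, -2.04 and -0.52 on the young arrays. On the old arrays, with Hes5 set to the background of log2 4, it was at least 2.62, 2.32 and 2.51, a shift of at least 3.85 (log2). Hey1 minus Hey2 shifted by 2.28, from 3.36, 3.61 and 3.85 to 5.90, 5.44 and 6.32. Id2 minus Id4 shifted by 1.79 and Id2 minus Id3 by 0.54. Hes1 with Hes5 and Hes5 with Hes6 are among the 7 and use a Hes5 probe set kept through the young arrays alone. Hes5 had to differ there, so these pairs add nothing to the count and no p is read from them. The others of the 7 each had an exact permutation p of 0.1 (two-sided, unadjusted). That is the smallest that 3 arrays against 3 can give, so this test cannot reach 0.05. The 3 pairs that overlapped were Id1 with Id2, Id1 with Id3 and Hes1 with Hes6.

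**Figure D3:**
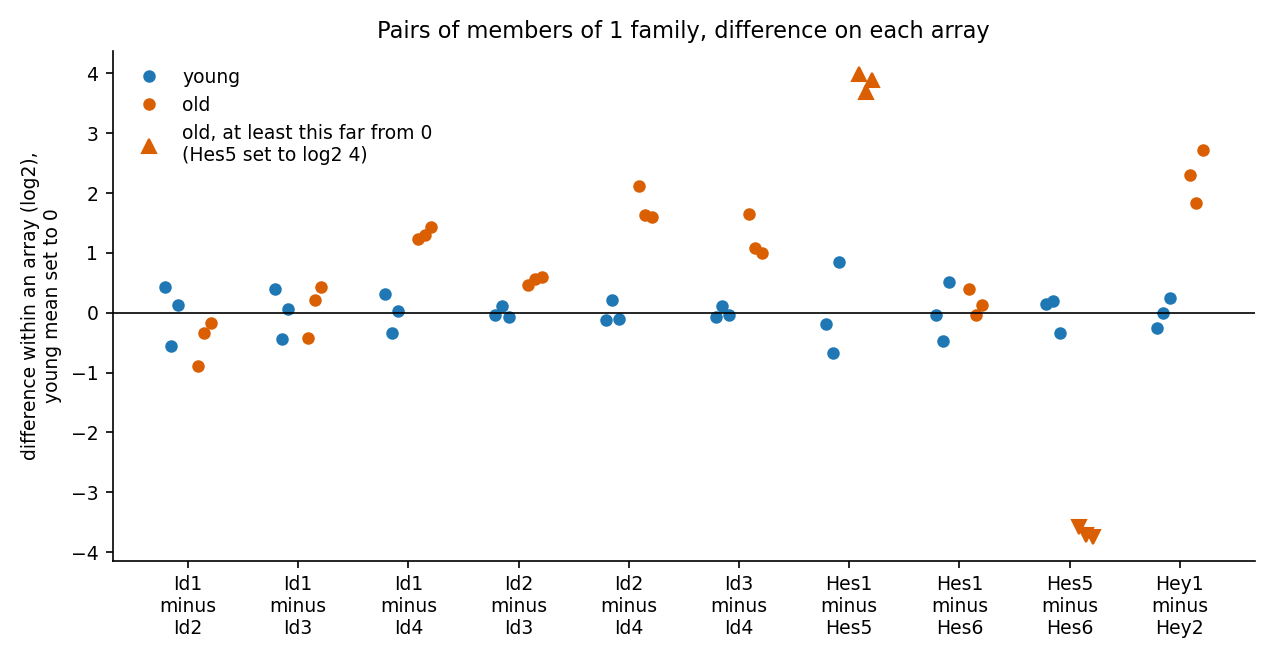
Difference of log2 levels between 2 genes of a family on each young (blue) and old (orange) array, with the mean of the young arrays set to 0. Triangles use log2 4 in place of Hes5 values under background and so show the least distance from 0, on average 3.85 for Hes1 minus Hes5 and -3.69 for Hes5 minus Hes6, while Hey1 minus Hey2 shifted by 2.28.

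The genes that switch on or work with these repressors were compared from lists chosen by function, 1 value per gene from its brightest kept probe set. Over all 10050 measured genes 40.6% passed the test, 22.0% higher and 18.5% lower in old cells, with a median change of 0.01 (log2). Of 19 measured Notch pathway genes 6 were higher, 5 lower and 8 did not pass, with a median change of 0.04. The ligand Dll3, which was dim, fell at least 1.75-fold. It passed the filter through the young arrays alone and so had to differ, and its p rests on old values near the lowest value. The ligand Jag1 rose by 0.60. Nrarp, a feedback inhibitor that is itself a Notch target, went from 12.54 ± 0.066 to 11.81 ± 0.18 (log2, SD, n = 3) and fell by 0.73 (limma adjusted p = 0.00463). Its other probe set fell by 1.18. The receptor Notch3 fell by 0.58 and the coactivator Maml1 by 0.55. Dll3, Jag1, Nrarp, Notch3 and Maml1 are named as the 5 called genes with the smallest p. Falls are therefore named more often than rises, although more of the called genes rose. Rbpj itself, named after its value was seen, had a difference of -0.15 and did not pass (limma adjusted p = 0.165).

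Of 11 measured BMP pathway genes 2 were higher, 3 lower and 6 did not pass (median change -0.01). The receptor Bmpr1b went from 10.65 ± 0.065 in young to 8.58 ± 0.14 in old cells (log2, SD, n = 3) and fell by 2.06. The ligand Bmp7 fell by 0.88, and by 2.28 and 2.29 at its other probe sets. Follistatin (Fst), which binds activins and some BMPs, fell by 3.20. The decoy receptor Bambi rose by 1.46 and the type I receptor Acvr1 by 0.51. These 5 genes had a limma adjusted p of at most 0.00622. The other 12 genes of the list lay under background on all arrays, among them Bmp2, Bmp4 and Nog.

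E proteins are the partners that Id proteins bind. All 3 were measured, and Tcf3 fell by 0.47 (limma adjusted p = 0.0189), a call lost without old replicate 2 or 3 (adjusted p = 0.0658 and 0.0560) or with no filter (0.0726). Its other 2 probe sets did not pass (adjusted p = 0.114 and 0.331). Tcf4 (-0.01) and Tcf12 (-0.11) did not pass. Of 13 proneural and neurogenic factors with values here, a class that Hes proteins repress, 4 were above the filter. Neurod4 fell at least 38.7-fold and Neurod1 at least 16.6-fold, both under background on all old arrays. Both passed the filter through the young arrays alone and so had to differ. The oligodendrocyte factors Olig1 and Olig2 did not pass. The other 9, including Neurog1 and Neurog2, lay under background on all arrays.

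Of the other Hes, Hey and Bhlhe repressors 1 was measured. Bhlhe40, a repressor linked to the circadian clock, fell by 0.32 (limma adjusted p = 0.0230), a call lost without old replicate 1 or 3 (adjusted p = 0.0753 and 0.0766) or with no filter (0.0678). Another 5, Hes2, Hes3, Hes7, Heyl and Bhlhe41, were under background on all arrays. In the list of Groucho corepressors, deacetylases and Runx partners 3 of 11 genes were higher, 2 lower and 6 did not pass (median change 0.11). The Groucho gene Tle2 rose by 1.54, a call lost with no filter on low values (adjusted p = 0.0575, limma), and Tle5, a short family member that opposes the others, by 0.27. The Tle5 call was lost without old replicate 2 or 3 (adjusted p = 0.0547 and 0.0526, limma). The deacetylase Hdac2 fell by 0.25. The transcription factor Runx1 rose at least 2.31-fold out of background, and it passed the filter through the old arrays alone and so had to differ. The corepressor Runx1t1 was lower (limma adjusted p = 0.0126, and 0.0638 with no filter). It read 6.01, 6.01 and 5.13 in young and 4.37, 3.33 and 3.79 in old cells, where 1 of 3 arrays was above background. The medians of the Notch list and of this list were the same with genes under background at their bounds.

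**Figure D4:**
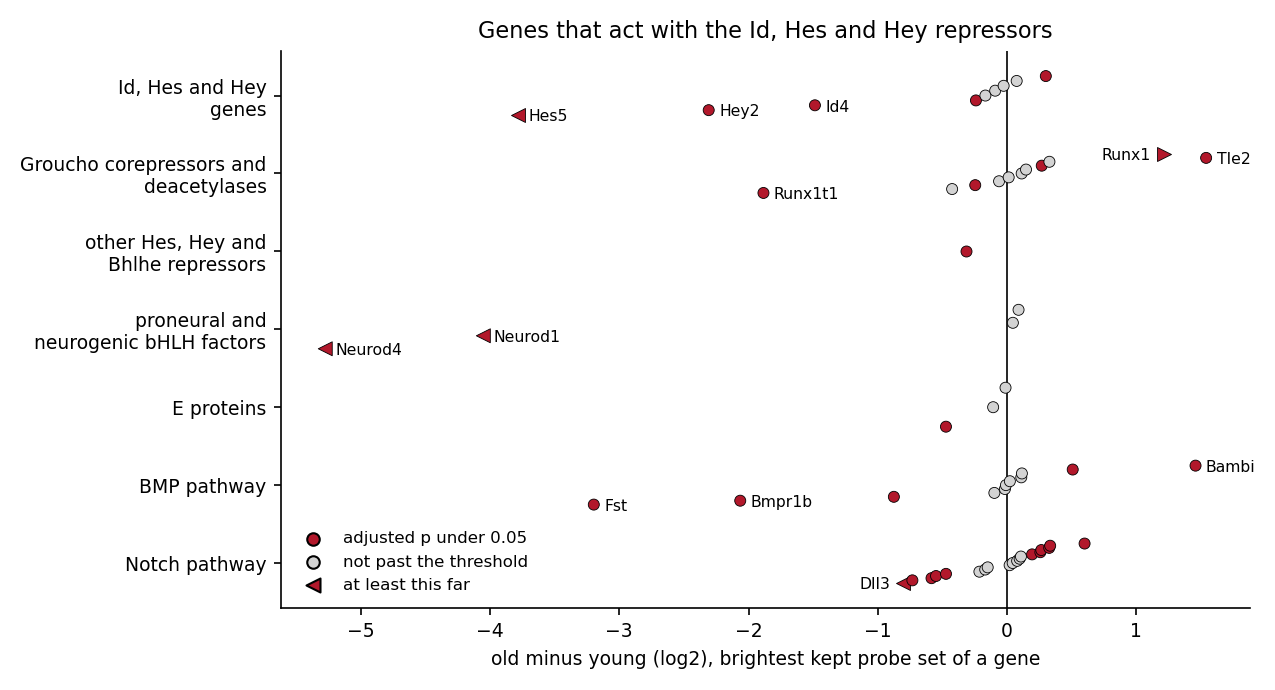
Difference between old and young cells (log2, x axis) for every measured gene of the 6 pathway lists and the 9 repressors, 1 point per gene, red for an adjusted p under 0.05. Triangles (Hes5, Neurod1, Neurod4, Dll3 and Runx1) mark genes under background on all arrays of an age, drawn at the smallest change that background allows, and have no order among themselves. Names mark these and genes beyond 1.4 in either direction.

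Markers of other neural cell types also differed between the ages, in both directions, where 22.0% of all measured genes were higher and 18.5% lower in old cells. Of 13 neuroblast and neuron markers 8 were measured, 6 lower and 1 higher in old cells, and their mean log2 level over all 13 was 7.53 to 7.73 on the young and 6.29 to 6.39 on the old arrays. Stmn2, Rbfox3 and Gad2 were under background on every array. Of 7 measured astrocyte markers 4 were higher and 1 lower (mean over all 8, 9.21 to 9.51 young and 10.14 to 10.43 old), with Gjb6 under background throughout. Of 6 measured oligodendrocyte lineage markers 3 were lower and none higher (mean over 10, 7.53 to 7.57 young and 6.35 to 6.40 old), and Sox10, Mbp, Mog and Mag were under background on all arrays. Among the 3 is Nkx2-2 (mean 10.51 young and 2.26 old), which passed the filter through the young arrays alone and so had to differ. Its drop to under background also enters the mean of the list. Ependymal markers numbered 4 measured, 3 higher and 1 lower (mean over 6, 4.43 to 4.75 young and 4.95 to 5.23 old), with Tmem212 and Rsph1 under background. Foxj1, among the 3 higher, passed the filter through the old arrays alone and so had to differ. Of the neural stem cell markers 1 was higher, 3 were lower and 7 did not pass (mean over 12, 11.70 to 11.72 young and 11.54 to 11.61 old). The part of these shifts in the Hes5, Hey2 and Id4 results was not tested. In such samples fewer cells of a type and less RNA per cell cannot be told apart.

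The genes closest in pattern were found as those with the smallest distance over the 6 arrays, after each gene was centred on its own mean. Hey2 was nearest to Lrrtm2, with a distance of 0.24 (log2), and Ndrg2, with 0.51, against a median of 2.97 over all genes. For Id4 they were Trpc1 (0.26) and Cdkn2b (0.28), with a median of 1.95. Id3 lay closest to Bicc1 (0.022) and Rtcb (0.034), and Id2 to Pcmtd1 (0.047) and Dlg1 (0.070). No distance is given for Hes5, whose old values lay under background. As the smallest of all distances, these lie under the median by construction, and the medians only give a scale. All of the genes named follow the contrast of the ages, which dominates the 6 arrays, although Dlg1 did not pass the test (limma adjusted p = 0.0529).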

How the data were processed

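The authors deposited log2 levels, 1 per probe set and array. They used GCRMA (per the submitters' processing notes), which removes background by a model of probe sequence, normalizes arrays to each other and summarises each probe set. Its version is not stated, and that the scale is log2 follows from the range of the values. Total RNA came from a NucleoSpin XS extraction and carried a biotin label, per the labels' protocols. Names come from the platform annotation where it gives 1 symbol, checked through RefSeq (GRCm38.p6).

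After 64 control probe sets were left out, those above log2 4 on at least 3 of 6 arrays were kept. Old and young arrays were compared with limma 3.58.1 in R 4.3.3 (lmFit, eBayes, two-sided), and the fit was tried on simulated data. A gene stands for its brightest kept probe set, and for a gene under log2 4 on all arrays of an age the fold is a lower bound against that level. No other kept probe set of a gene named from the lists went the opposite way at an unadjusted p under 0.05. Of each functional list the text names the called genes, at most the 5 with the smallest p. Members and lists were chosen with earlier results of these data known. Pairs within families were added after the values were seen. Alternatives covered stricter and absent filters, a repeated quantile normalization, median centring, a replicate block, array weights, trend and robust options of eBayes, a threshold of 0.01, dropping each array and averaging probe sets. The labels name no batch. The number of arrays limits the precision. Python 3.11.15 with matplotlib 3.10.9 drew the figures.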

Additional observations from a re-analysis of the deposited data

How the results depend on the processing

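The falls of Hey2 and of Id4 (1450928_at) kept their direction and stayed under their threshold in all settings run, including each array left out. So did both Hes5 probe sets and the dimmer one of Id4 wherever they were kept, but their old values lie under background, so this says little about stability. Over the 6 fits that left out 1 array, the 6 lower calls remained 6 in number, the higher calls among the 13 probe sets ranged from 0 to 2, and over all probe sets the lower calls ranged from 2177 to 3301 and the higher ones from 2768 to 3961. With no filter on low values 0 of the 13 were higher, both Id2 calls being lost (adjusted p = 0.0601 and 0.0924), and at an adjusted p under 0.01 there were again 0, with 2148 higher and 1629 lower over all probe sets. Keeping only probe sets above log2 4 on all 6 arrays left 3 lower calls, since that filter removes both Hes5 probe sets and 1 of Id4. Deviations of arrays of the same replicate number had r = -0.16, -0.11 and 0.16 across probe sets for numbers 1, 2 and 3. Arrays of different numbers gave r from -0.22 to 0.25. With 3 arrays per age, whose deviations depend on each other, these values cannot show whether the numbers pair the samples. With the number as a replicate block there were 2 higher and 5 lower calls, and Id3 (adjusted p = 0.0539), Tle5 and Bhlhe40 (both 0.0640) did not pass; over all probe sets there were 3144 higher and 2456 lower. Differences that had not passed turned sign in 5 cases. Leaving out 1 array, Id1 ranged from -0.41 to 0.10 (above 0 without young replicate 1 or old replicate 1), Hes1 from -0.20 to 0.37 (below 0 without young replicate 2) and Hey1 from -0.070 to 0.015 (above 0 without old replicate 3), and Hes1 had -0.15 with array weights. The cause was not tested. The gene-level averages of probe sets kept direction and call for Id2 (0.39), and Hes6 (-0.08) again did not pass; those of Id4 and Hes5 include values under background. Among 19 genes named from the lists, 5 (Tcf3, Tle2, Tle5, Runx1t1 and Bhlhe40) lost their call in at least 1 setting and 0 turned sign. Dll3, Neurod1, Neurod4 and Runx1 were kept through the arrays of 1 age alone, so their lasting calls say little about stability. Levels near the lowest value limit what can be said of Hes5 in old cells.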
